A study of Saccharomyces cerevisiae with 112 samples.

Results

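The genes of branched-chain amino acid synthesis in budding yeast, Saccharomyces cerevisiae, were followed through glucose withdrawal. They were taken by name as the 10 features ILV1, ILV2, ILV3, ILV5, ILV6, LEU1, LEU4, LEU9, BAT1 and BAT2, of 5560 yeast features in the deposited tables. All 10 had reads in each of the 22 groups of libraries and passed the filters on low counts of the tests given here. The series held 112 samples, and the deposited tables of 40 of them were used.

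The libraries came from SLAM-seq, in which cells take up 4-thiouracil (4TU), a uracil analogue, and alkylation then makes the labelled RNA read as T-to-C conversions. A chase set of 28 libraries from strain KWY165 held 2 courses without glucose and 2 with glucose, taken at 0, 5, 10, 15, 20, 30 or 45 min after the pulse. A polysome set of 8 libraries from strain KWY11376 held polysomes and total RNA at 30 min without glucose, with post-labeling (4TU) added to their titles, and polysomes and total RNA after 30 min of 4TU with glucose, 2 libraries each. From the titles alone the order of 4TU and withdrawal in those libraries is not known. Polysomes and total RNA of KWY165 without 4TU, at 30 min without glucose or with glucose, had 1 library each and no replicates. The labels give the strains by name only, with no genotype, and name no separate cultures for the replicates, so p-values measure the spread between these libraries, which may be technical.

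Valine and isoleucine are made in yeast mitochondria by a shared set of enzymes, and leucine needs a further branch that starts from the keto acid of valine and has later steps in the cytosol. Isoleucine synthesis starts from threonine, and the last step of all 3 amino acids is a transamination that also runs backwards when the amino acids are broken down. The pathway is known for its control by the transcription factors Leu3, which senses the first intermediate of the leucine branch, and Gcn4, the activator of general amino acid control.

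Yeast reads per library ran from 2710630 to 10591665 in the chase set, from 14965187 to 31069123 in the polysome set and from 15482446 to 29223067 without 4TU. Levels are given as counts scaled to a common library total (CPM) after TMM scaling, and each log2 change is given ± its standard error, from 2 libraries a group unless said otherwise. Reads were counted in windows of 592 to 874 bases at the 3' end of each gene, and the build of the coordinates is not stated in the labels or headers. The ILV3 window overlapped the opposite-strand gene YJR015W and the LEU1 window the opposite-strand gene MPO1, and multimapped reads made up at most 2.23% of a member's reads.

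In total RNA of KWY11376, withdrawal of glucose went with opposite changes inside the pathway. The shared-step genes ILV5 and ILV3 and the minor leucine gene LEU9 were lower without glucose, and the leucine gene LEU4 and the cytosolic transaminase gene BAT2 were higher. That is 3 of 10 members lower and 2 higher, against 29.3% of all 5540 genes tested lower and 29.4% higher by edgeR's quasi-likelihood test at an adjusted p of 0.05. The members' shares are close to those of all genes.

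ILV5 (YLR355C, chromosome XII, 837443 to 838316), the mitochondrial acetohydroxyacid reductoisomerase that also helps to maintain mitochondrial DNA, had 144 and 115 CPM in the total RNA libraries without glucose, against 1639 and 1594 CPM in those with glucose. The groups lay far apart, with both libraries without glucose below both with glucose. It fell 12.5-fold (log2 -3.64 ± 0.214, adjusted p = 1.28e-09). ILV3 (YJR016C, chromosome X, 464084 to 464701), the dihydroxyacid dehydratase of the next step, had 22.3 and 20.5 CPM without glucose, against 74.9 and 107 CPM with glucose. Again the groups did not overlap, and ILV3 fell with a log2 change of -2.09 ± 0.215 (adjusted p = 6.61e-07).

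LEU9 (YOR108W, chromosome XV, 524592 to 525228), the minor isopropylmalate synthase, had 67.4 and 53.6 CPM without glucose, against 81.6 and 86.9 CPM with glucose. The groups were apart but close, and the log2 change was -0.48 ± 0.187 (adjusted p = 0.0381). LEU9 did not pass the test when any 1 of the 4 libraries was left out, with log2 values of -0.65 to -0.32 and adjusted p-values up to 0.324.

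LEU4 (YNL104C, chromosome XIV, 424554 to 425145), the main isopropylmalate synthase that commits carbon to leucine, had 721 and 689 CPM in total RNA without glucose, against 231 and 398 CPM with glucose. Both libraries without glucose were above both with glucose, and the pair with glucose was the less even one. LEU4 rose with a log2 change of 1.16 ± 0.243 (adjusted p = 0.00068). BAT2 (YJR148W, chromosome X, 706625 to 707359), the cytosolic branched-chain transaminase, had 195 and 219 CPM without glucose, against 73.9 and 65.2 CPM with glucose. It rose with a log2 change of 1.57 ± 0.176 (adjusted p = 1.54e-06), and the groups did not overlap.

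The other 5 members did not pass. ILV1 (YER086W, chromosome V, 329958 to 330565), the threonine deaminase that opens isoleucine synthesis, had a log2 change of -0.48 ± 0.208 (adjusted p = 0.0603), and passed without the second library with glucose (-0.64, adjusted p = 0.0372) or the first without glucose (-0.75, adjusted p = 0.0328). BAT1 (YHR208W, chromosome VIII, 518464 to 519076), the mitochondrial transaminase, had -0.46 ± 0.228 (adjusted p = 0.0914), and its libraries without glucose, at 361 and 279 CPM, were both below those with glucose, at 383 and 500 CPM. BAT1 passed without the first library with glucose (log2 -0.64, adjusted p = 0.0476). The acetolactate synthase genes ILV2 (YMR108W, chromosome XIII, 485898 to 486526), which encodes the catalytic subunit, and ILV6 (YCL009C, chromosome III, 104266 to 104869), which encodes the regulatory subunit, had log2 changes of 0.26 ± 0.172 and -0.18 ± 0.316. LEU1 (YGL009C, chromosome VII, 475916 to 476563), the isopropylmalate isomerase, had -0.16 ± 0.186.

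The chase libraries gave the same comparison over time in KWY165, with the courses starting from like levels. At 0 min no member differed between courses without and with glucose by edgeR, where 0.109% of the 5525 genes tested were higher and 0.398% lower. The members' log2 differences at 0 min lay between -0.25 and 0.25.

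**Figure D1:**
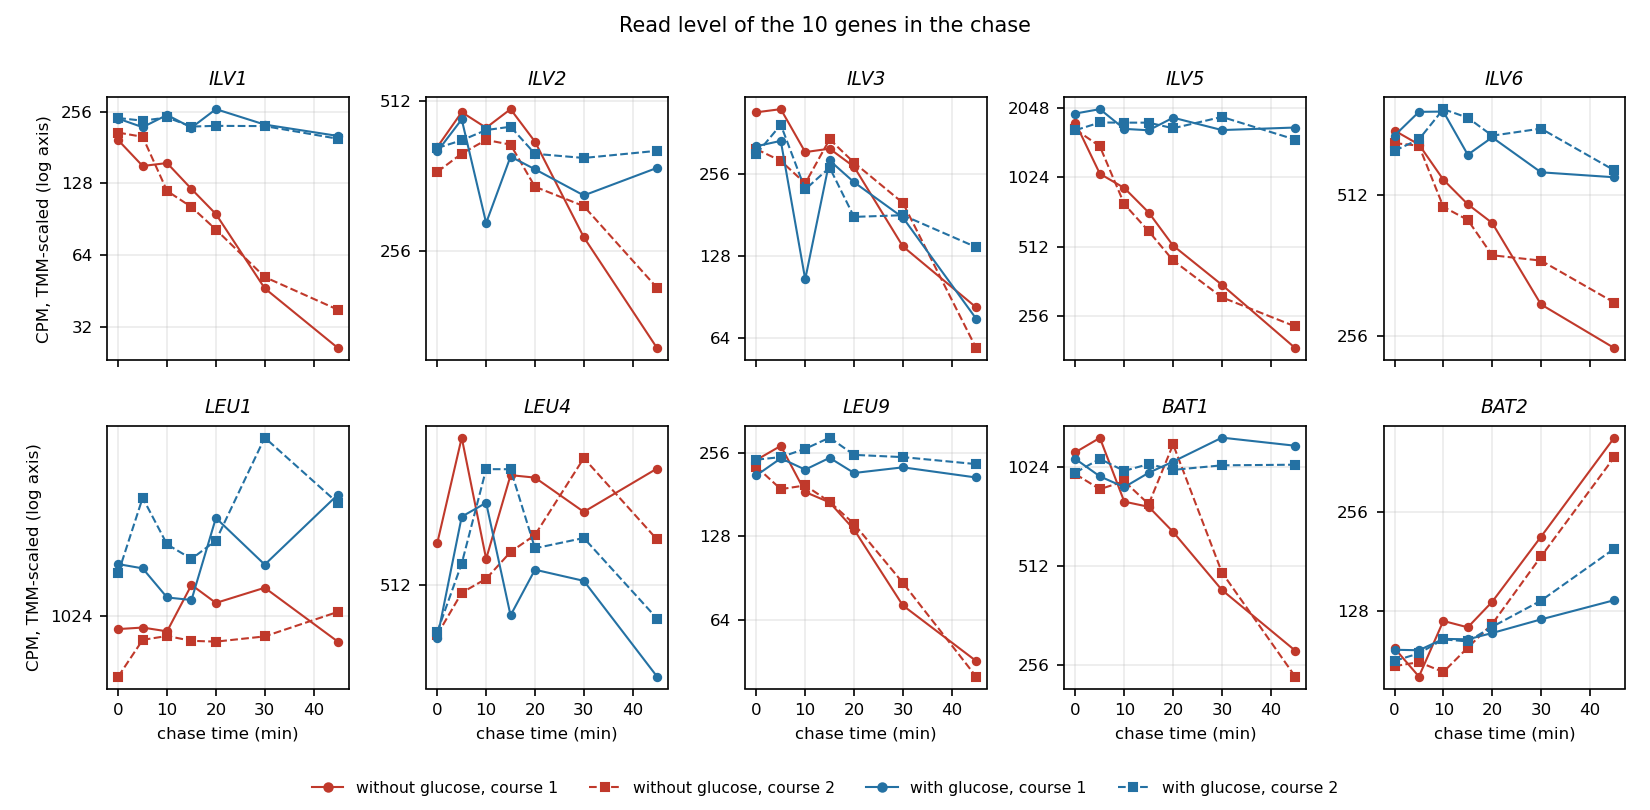
Read level of each gene (CPM after TMM scaling, log2-spaced axis with its own range in each panel) against chase time in minutes, 1 line per course, without glucose in red and with glucose in blue. ILV5 without glucose ends at 186 and 230 CPM against 1681 and 1490 CPM with glucose, while BAT2 ends at 433 and 377 CPM without glucose against 138 and 198 CPM with glucose.

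ILV5 separated first. At 5 min it had 1059 and 1394 CPM without glucose, against 2020 and 1768 CPM with glucose, and it was lower by a log2 value of -0.63 ± 0.154 (adjusted p = 0.00739), the 1 member called where 8.14% of genes were higher and 5.45% lower. ILV1 and ILV6 followed at 10 min, with log2 changes of -0.84 ± 0.159 and -0.59 ± 0.146 beside -1.01 ± 0.155 for ILV5, so that 3 members were lower where 22.3% of genes were higher and 18.2% lower. With the libraries scaled to the spike-in, ILV5 at 5 min did not pass (log2 -0.63, adjusted p = 0.191).

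LEU9 joined at 15 min with a log2 change of -0.66 ± 0.151, and BAT1 with spike-in scaling only (-0.78, adjusted p = 0.0074). The 4 members lower at 15 min stood beside 30.9% of genes higher and 26% lower. The 4 members called at 20 min were also ILV1, ILV5, ILV6 and LEU9, lower by log2 values of -0.72 to -1.87, where 34.1% of genes were higher and 29.6% lower. No member was called higher before 30 min, although with library totals 2 were at 10 min and 3 at 20 min. Of 5525 genes, 1726 and 2482 were higher at those times with library totals. BAT1 without glucose was uneven at 20 min, with 650 and 1197 CPM in the 2 courses.

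At 30 min of the chase 6 members were lower and 1 higher, against 34.7% of all genes lower and 38.3% higher. ILV5 had 349 and 308 CPM without glucose, against 1639 and 1869 CPM with glucose, and fell with a log2 change of -2.42 ± 0.162 (adjusted p = 1.73e-12). ILV1 had 46.5 and 51.9 CPM without glucose, against 226 and 223 CPM with glucose, and fell with a log2 change of -2.19 ± 0.168 (adjusted p = 2.02e-11). For both genes the 2 courses of a condition agreed closely and the conditions were far apart.

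LEU9 at 30 min had 72.0 and 86.8 CPM without glucose, against 227 and 247 CPM with glucose (log2 -1.58 ± 0.157, adjusted p = 2.31e-09). BAT1 had 433 and 489 CPM without glucose, against 1255 and 1034 CPM with glucose (log2 -1.31 ± 0.202, adjusted p = 2.96e-06). ILV6 had 299 and 371 CPM without glucose, against 573 and 711 CPM with glucose (log2 -0.94 ± 0.147, adjusted p = 3.62e-06). In these 3 genes the courses without glucose were below those with glucose with a clear gap.

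LEU1 was lower by a smaller amount at 30 min, with 1085 and 982 CPM without glucose against 1138 and 1477 CPM with glucose. Its log2 change of -0.34 ± 0.129 (adjusted p = 0.0214) rested on the second courses: without that with glucose it was -0.18 (adjusted p = 0.269), without that without glucose -0.27 (adjusted p = 0.136), and with library totals -0.04 (adjusted p = 0.796). BAT2 was the 1 member higher, with 216 and 188 CPM without glucose against 121 and 138 CPM with glucose (log2 0.65 ± 0.162, adjusted p = 0.00101). With spike-in scaling the log2 change of BAT2 was 0.17 (adjusted p = 0.563).

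By 45 min 7 members were lower and 2 higher, against 36.9% of all genes lower and 40% higher. The median log2 change of the 10 members was -1.05, beside 0.05 over all genes tested. ILV2, the catalytic subunit gene, had 164 and 216 CPM without glucose, against 376 and 406 CPM with glucose, and was lower (log2 -1.04 ± 0.177, adjusted p = 9.57e-06). With spike-in scaling it had passed at 30 min as well (-0.77, adjusted p = 0.00567). LEU1, another of the 7, had a log2 change of -0.38 at 45 min, which with library totals was -0.064 (adjusted p = 0.64). BAT2 reached a log2 change of 1.26 ± 0.162 (adjusted p = 1.2e-07). LEU4 was higher with TMM scaling (log2 0.50 ± 0.175, adjusted p = 0.0118), but with spike-in scaling its log2 value turned to -0.17 (adjusted p = 0.562).

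ILV3 moved in both conditions of the chase. It had 83.1 and 59.0 CPM at 45 min without glucose, against 75.6 and 138 CPM with glucose, where all 4 courses had begun between 303 and 430 CPM. It passed at no time of the chase, and its log2 change was -0.08 ± 0.301 at 30 min and -0.60 ± 0.310 at 45 min. With spike-in scaling ILV3 was lower at 45 min (log2 -1.23, adjusted p = 1.92e-05), and with library totals it was higher at 10 min (0.90) and 20 min (0.70). One library, the first course with glucose at 10 min, had 105 CPM beside 225 CPM in the second.

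Taking the change from 0 to 30 min in each condition, 5 members fell more without glucose and BAT2 rose more, against 29.2% of all genes lower and 32.2% higher. The log2 differences of change were -2.35 ± 0.220 for ILV5, -1.94 ± 0.227 for ILV1, -1.62 ± 0.217 for LEU9, -1.34 ± 0.282 for BAT1 and -0.98 ± 0.206 for ILV6. BAT2 had 0.67 ± 0.231 (adjusted p = 0.0151), and spike-in scaling (0.25) ended that call. So did leaving out the first course with glucose at 0 or at 30 min, the first without glucose at 30 min or the second without glucose at 0 min, with values of 0.56 to 0.61.

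**Figure D2:**
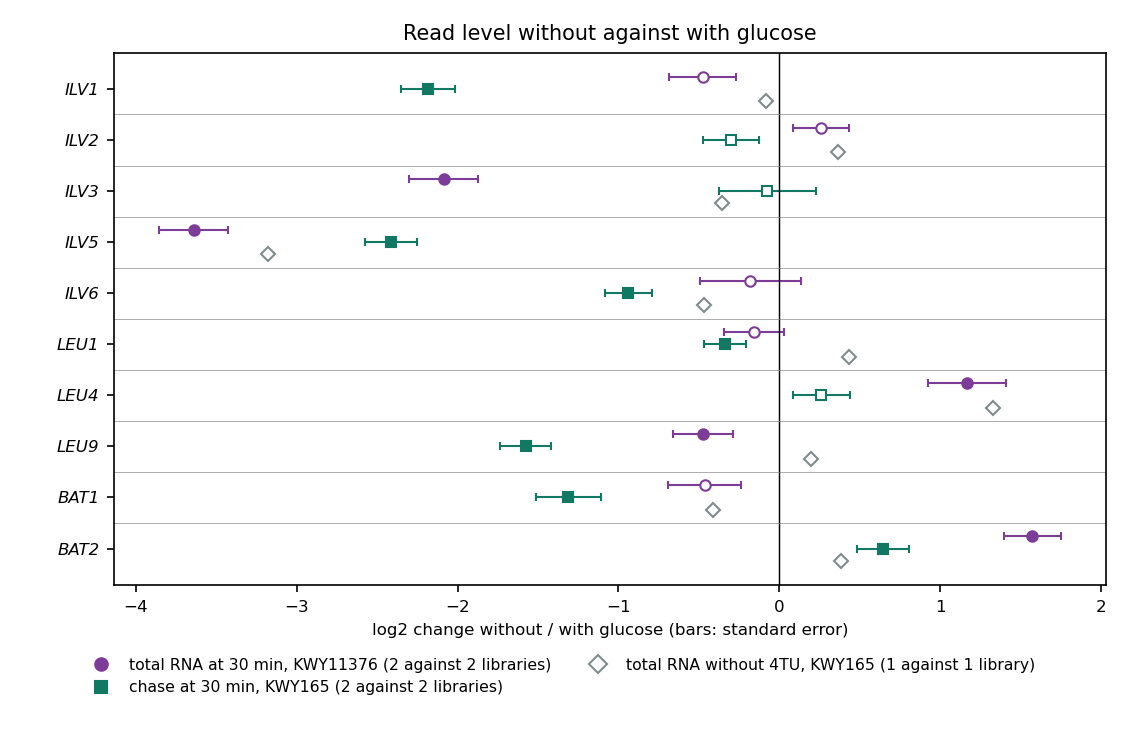
Log2 change of the read level without against with glucose for each gene, with standard error bars, in total RNA of KWY11376 and in the chase at 30 min in KWY165, and as a single ratio of libraries without 4TU. Filled symbols passed at an adjusted p of 0.05; ILV5 lies at -3.64, -2.42 and -3.18 in the 3 data sets, whereas ILV3 lies at -2.09, -0.08 and -0.36.

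The libraries of KWY165 without 4TU gave 1 more ratio per gene, with no replicates and no test. ILV5 had 155 CPM in total RNA without glucose, against 1407 CPM with glucose, a log2 ratio of -3.18. LEU4 had 651 CPM without glucose, against 259 CPM with glucose, a log2 ratio of 1.33. These were the members past 2-fold, 1 lower and 1 higher, where 10.8% of 5456 genes were lower and 18.5% higher by as much. The other 8 log2 ratios lay between -0.47 for ILV6 and 0.43 for LEU1.

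The abundance change of several members differed between the polysome set's total RNA and the chase at 30 min. In a joint fit of 36 libraries, 5 members had a more positive log2 change in total RNA and 2 a more negative one, against 20.5% of all genes higher and 26.5% lower. ILV1 differed by a log2 value of 1.70 ± 0.252 and ILV3 by -2.02 ± 0.403. ILV3 had 74.9 and 107 CPM in total RNA of KWY11376 with glucose, 31.1 CPM in total RNA of KWY165 with glucose and without 4TU, and 303 to 323 CPM in the chase with glucose at 0 min. Between the polysome set and the chase, strain, labelling scheme and library set vary together and cannot be told apart. The libraries without 4TU share the strain of the chase, with 1 library a group. Their log2 ratio in total RNA was -0.08 for ILV1 and -0.36 for ILV3, and what sets them apart from the chase was not tested.

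Over the 14 chase group means, the members' log2 levels formed a description of who moved with whom, in which all values share the same libraries. ILV1 and ILV5 had a Pearson correlation of 0.99, ILV1 and LEU9 0.97, and ILV5 and ILV6 0.98. BAT2 ran the other way from most, at -0.75 with ILV5 and -0.93 with ILV2. Among 4871 genes compared, the levels most like those of ILV5 were those of POP8 (RNase P and MRP subunit, 0.997), PKR1 (V-ATPase assembly factor, 0.996) and TEF4 (translation elongation factor, 0.994). Those most like BAT2 were ATP18 (ATP synthase subunit, 0.974), FUM1 (fumarase, 0.959) and SOD1 (superoxide dismutase, 0.951).

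Other genes of the pathway were read from a list of 15, which holds regulators, permeases, the threonine supply and LEU2. In total RNA 9 of the 15 were lower and 1 higher without glucose, with a median log2 change of -0.67, where 29.3% of all genes were lower and 29.4% higher. The 1 higher was LEU2, the isopropylmalate dehydrogenase that follows LEU1, with 544 and 566 CPM without glucose against 102 and 99.8 CPM with glucose (log2 2.46). After 30 min of chase 9 were lower and 3 higher, where 34.7% of all genes were lower and 38.3% higher. The 3 higher were LEU2 (log2 1.97), the keto acid decarboxylase gene ARO10 (1.62) and the permease gene BAP2 (0.74). The regulator genes LEU3 (-1.06) and GCN4 (-1.08) were both lower there. Of 24 amino acid synthesis genes of other pathways under general amino acid control, 6 were lower and 1 higher in total RNA (median -0.09), and 14 lower and 3 higher in the chase at 30 min (median -0.61, beside -0.64 for the 10 members). The 6 of 24 lower in total RNA are close to the share of all genes.

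Polysome association was compared next, as the level in polysomes against total RNA. Without glucose ILV6 and LEU4 were higher in polysomes and ILV1 and ILV2 lower, 2 members each way, against 25.7% of all genes higher and 24.4% lower. With glucose ILV6 was higher and ILV1, ILV2, ILV5 and LEU1 were lower, against 15.3% of genes higher and 13.6% lower. TMM scaling sets the typical gene near 0 in each comparison, so values are relative to other mRNAs and not to ribosome load.

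ILV1 had 26.3 and 22.6 CPM in polysomes without glucose, against 83.9 and 59.0 CPM in total RNA, and was lower (log2 -1.55 ± 0.219, adjusted p = 3.55e-05). With glucose it had 43.0 and 49.1 CPM in polysomes, against 111 and 87.5 CPM in total RNA (log2 -1.11 ± 0.210, adjusted p = 0.00131). In both conditions the polysome libraries lay below the total RNA libraries without overlap. ILV2 was lower by a log2 value of -0.44 ± 0.173 without glucose (adjusted p = 0.0431), a call that leaving out any 1 of the 4 libraries ended, and by -0.56 ± 0.173 with glucose (adjusted p = 0.0243).

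ILV6 had 1889 and 817 CPM in polysomes without glucose, against 501 and 492 CPM in total RNA. The polysome libraries were both higher but differed from each other more than 2-fold, and without the first the log2 value of 1.45 ± 0.322 (adjusted p = 0.00159) was 0.72 (adjusted p = 0.0633). With glucose ILV6 had 1202 and 1687 CPM in polysomes, against 436 and 689 CPM in total RNA (log2 1.36 ± 0.321, adjusted p = 0.00539). Leaving out the first total RNA library with glucose ended the calls of ILV6 (log2 1.07, adjusted p = 0.0636), ILV2 (-0.55, adjusted p = 0.0681) and LEU1 (-0.60, adjusted p = 0.0627) in that condition. Leaving out the second polysome library did so for ILV6 (1.10, adjusted p = 0.0633) and ILV2 (-0.49, adjusted p = 0.128), and leaving out the first for LEU1 (-0.57, adjusted p = 0.0757). The single libraries without 4TU gave 952 CPM in polysomes and 610 CPM in total RNA without glucose, and 3558 CPM in polysomes and 845 CPM in total RNA with glucose.

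LEU4 without glucose had 1556 and 1300 CPM in polysomes, against 721 and 689 CPM in total RNA, and was higher (log2 1.02 ± 0.242, adjusted p = 0.00257). With library totals in place of TMM its log2 value was 0.27 (adjusted p = 0.269). The libraries of KWY165 without 4TU showed 640 CPM in polysomes and 651 CPM in total RNA. LEU4 with glucose had a log2 value of 0.35 ± 0.240, which did not pass with all libraries but did without the second of total RNA (0.79, adjusted p = 0.0239). Without the second polysome library LEU9 (0.57, adjusted p = 0.045) and BAT1 (0.73, adjusted p = 0.0375) also passed without glucose.

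**Figure D3:**
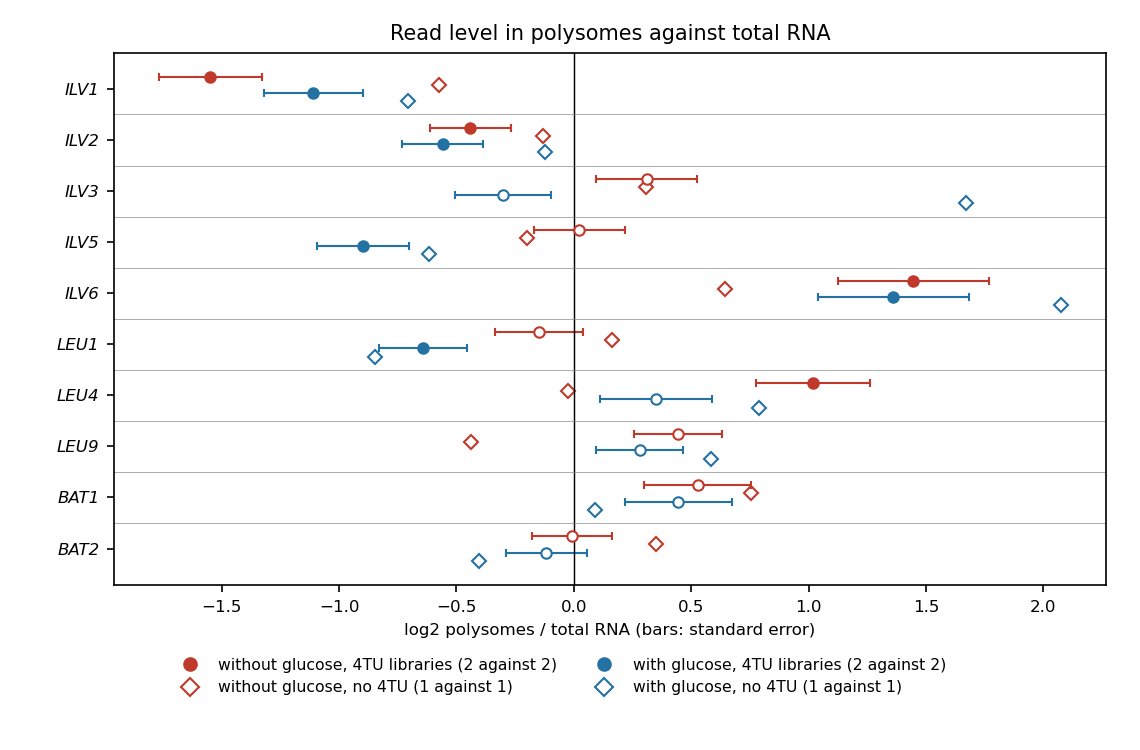
Log2 ratio of the read level in polysomes to that in total RNA for each gene, without glucose in red and with glucose in blue, with standard error bars for the 4TU libraries of KWY11376 and open diamonds for the single libraries of KWY165 without 4TU. Filled circles passed at an adjusted p of 0.05; ILV5 lies at 0.02 without glucose and -0.90 with glucose, and ILV6 at 1.45 and 1.36.

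The difference between the conditions passed for 1 member. ILV5 had 137 and 127 CPM in polysomes without glucose, against 144 and 115 CPM in total RNA, a log2 value of 0.02 ± 0.194. With glucose it had 813 and 922 CPM in polysomes, against 1639 and 1594 CPM in total RNA, a log2 value of -0.90 ± 0.194 (adjusted p = 0.00314). Polysomes and total RNA thus overlapped without glucose and did not overlap with glucose. The change of 0.92 ± 0.274 was called (adjusted p = 0.0315), as 8.16% of all genes were in that direction and 8.01% in the other. Library totals gave 0.70 (adjusted p = 0.0909). Leaving out either total RNA library without glucose, the first polysome library without glucose or the first with glucose ended the call, with values of 0.77 to 1.09 and adjusted p-values of 0.0777 to 0.207.

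For the other 9 members the change between conditions did not pass, with log2 values from -0.44 ± 0.299 for ILV1 to 0.67 ± 0.339 for LEU4. In simulated data the test of this change recovered 33% of log2 changes of 1 and 87.6% of those of 2. Without 4TU no member was past 2-fold between polysomes and total RNA without glucose, where 11.1% of genes were higher and 12.4% lower by as much. With glucose ILV3 (log2 ratio 1.67) and ILV6 (2.07) were, where 10.8% of genes were higher and 9.71% lower. ILV3 had 30.02 CPM in polysomes against 24.2 CPM in total RNA without glucose, and 100 CPM in polysomes against 31.1 CPM in total RNA with glucose, in those single libraries.

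Label in the chase started at different shares of the members' reads. Over the 4 libraries at 0 min, 88.1% of ILV3 reads carried conversions, a share among the highest of 5135 genes. For LEU4 it was 75.7% of reads, beside a median of 59.4% over genes. BAT2 and BAT1 had the lowest shares of the 10, at 52.0% and 53.4%. The share of converted T positions, which does not count how many of them a read covers, was 5.77% for ILV3, beside a median of 3.72% over genes.

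**Figure D4:**
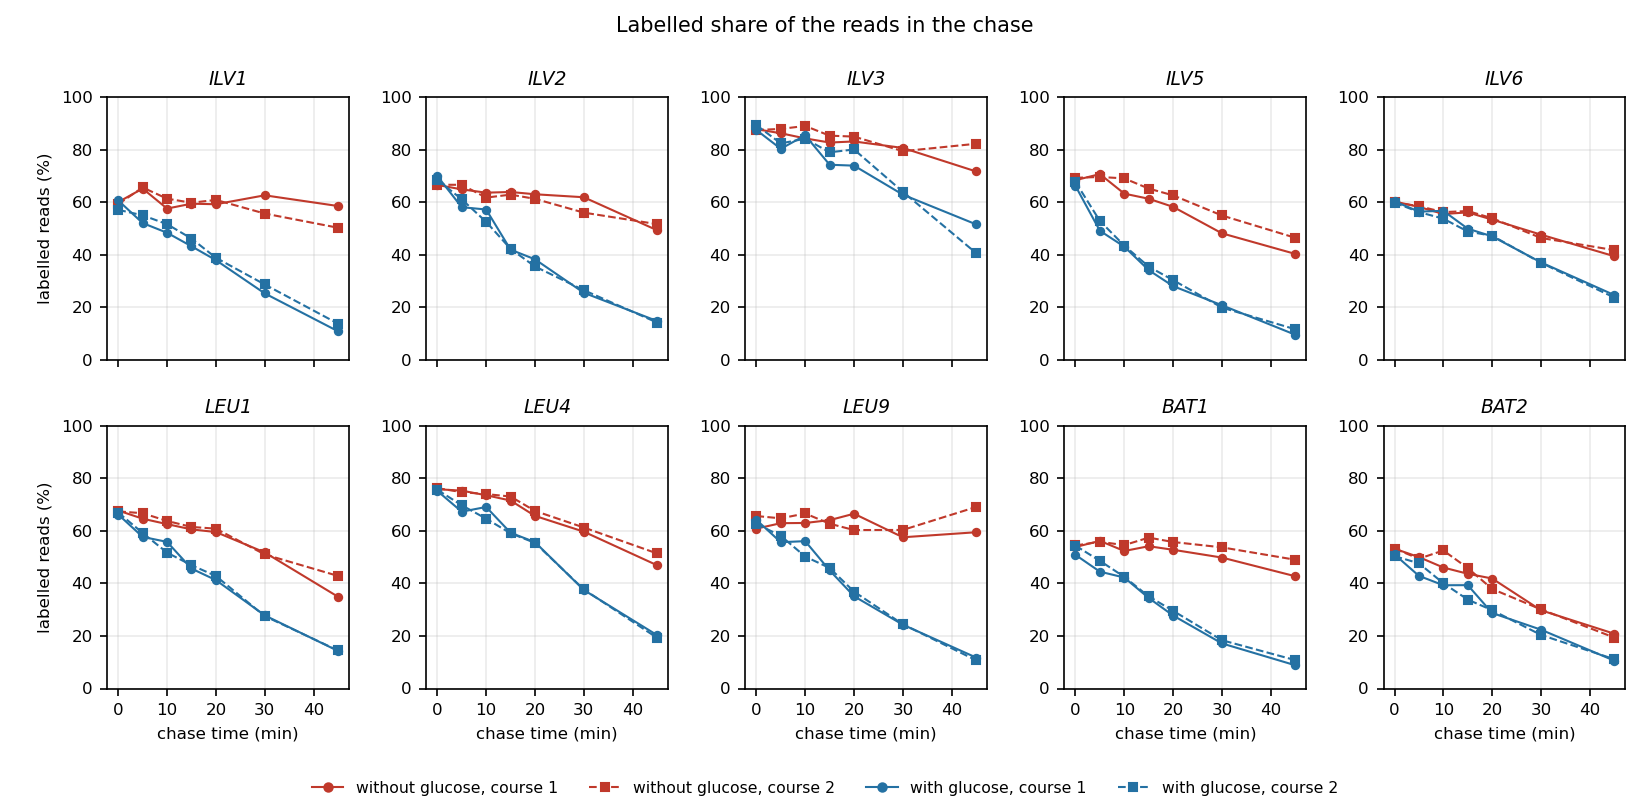
Labelled reads as a percent of each gene's reads against chase time in minutes, 1 line per course, without glucose in red and with glucose in blue. At 45 min LEU9 holds 59.5% and 69.1% labelled reads without glucose against 11.8% and 10.7% with glucose, while BAT2 holds 20.8% and 19.4% without glucose against 10.6% and 11.2% with glucose.

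With glucose the labelled share fell in all 10 members, by log2 odds of -0.50 to -0.86 per 10 min, as it did in 99.8% of 5224 genes, with 0% higher. Without glucose 9 members fell, as did 91.8% of genes, with 0.0957% higher. The exception was LEU9, whose slope was -0.02 ± 0.037 (adjusted p = 0.544). LEU9 had 59.5% and 69.1% labelled reads at 45 min without glucose, against 11.8% and 10.7% with glucose, and all 4 courses had begun between 60.8% and 65.6%. The courses without glucose stayed near their start and those with glucose ended far below.

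The slope was less steep without glucose in all 10 members, as in 93.1% of genes, with 0.0383% steeper. The sizes spread widely around the median difference of 0.39 per 10 min over all genes. LEU9 had the largest among the members, at 0.82 ± 0.048 (adjusted p = 2.89e-27), followed by BAT1 at 0.66 ± 0.037 and ILV1 at 0.63 ± 0.052. BAT2 had the smallest, at 0.17 ± 0.046 (adjusted p = 0.000526), and ILV6 was next at 0.24 ± 0.035. These standard errors and p-values also take the times of a course as independent. With 1 slope of the log2 labelled share per course, LEU9 had -0.020 and 0.0035 per 10 min without glucose, against -0.55 and -0.57 with glucose. Over 0 to 20 min alone ILV3 did not pass (0.29, adjusted p = 0.106), ILV5 was at 0.81, and the order differed, with ILV2 the largest at 0.85 and ILV6 the smallest at 0.21. ILV1 had 58.6% and 50.3% labelled reads at 45 min without glucose, against 10.9% and 13.8% with glucose, whereas BAT2 had 20.8% and 19.4% against 10.6% and 11.2%.

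A labelled share moves with new unlabelled reads as well as with the loss of labelled ones, so labelled reads were also set against the spike-in reads of each library. Fewer cells and less RNA per cell cannot be told apart in such a ratio, and the labels used here do not describe how the spike-in was added. On this scale the order of the slopes without and with glucose turned for 6 members, of which only ILV1 and ILV5 passed the limma test given below. How many of all genes turned was not counted, and 5.88% of 5224 genes were called steeper without glucose. ILV5 at 45 min kept 3.21% and 4.26% of its labelled reads of 0 min without glucose, against 12.5% and 9.15% with glucose. BAT2 kept 88.8% and 71.9% without glucose, against 29.1% and 28.4% with glucose. All yeast reads together kept 28.5% and 29.2% without glucose, against 39.3% and 22.1% with glucose.

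**Figure D5:**
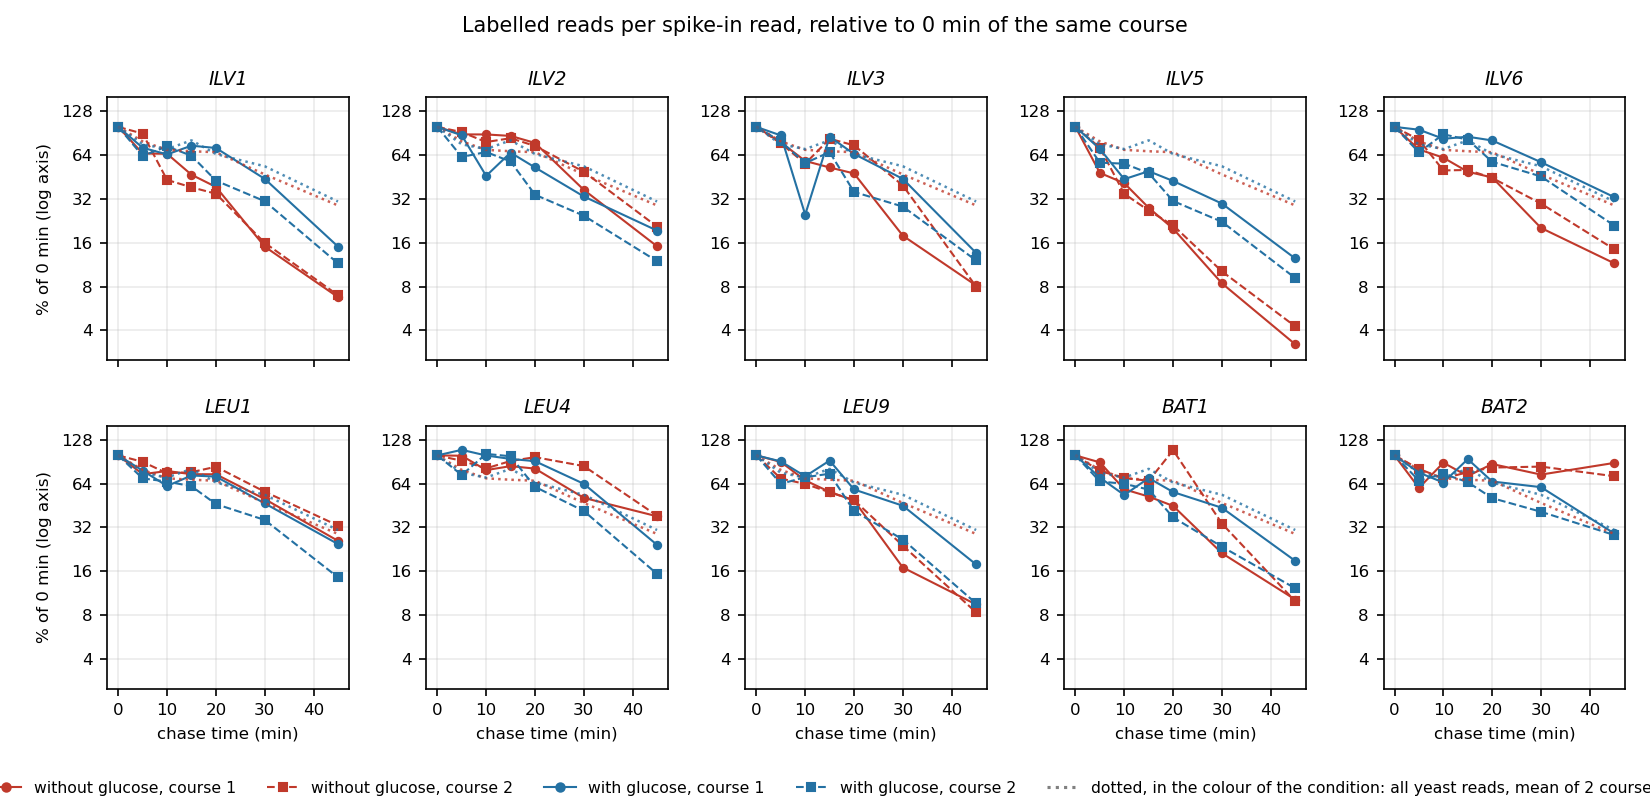
Labelled reads per spike-in read as a percent of 0 min of the same course (log2-spaced axis) against chase time in minutes, without glucose in red and with glucose in blue, with all yeast reads as dotted lines. The courses of ILV5 without glucose lie below those with glucose at every time from 10 min, and those of BAT2 without glucose lie above from 20 min.

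Slopes of log2 labelled reads per spike-in read were fitted per course and compared with limma, 2 courses against 2. ILV5 had -1.07 and -1.004 per 10 min without glucose, against -0.60 and -0.72 with glucose, a difference of -0.38 ± 0.116 (adjusted p = 0.00411). ILV1 had -0.87 and -0.86 without glucose, against -0.53 and -0.65 with glucose, a difference of -0.27 ± 0.116 (adjusted p = 0.0445). BAT2 had slopes of 0.01 and -0.05 without glucose, against -0.33 and -0.38 with glucose, a difference of 0.34 ± 0.116 (adjusted p = 0.0114). Courses did not overlap between conditions in any of the 3 genes, and 2 members were steeper and 1 shallower without glucose, where 5.88% of 5224 genes were steeper and 36.1% shallower. The median slope over all genes was -0.43 and -0.41 without glucose, against -0.50 and -0.65 with glucose.

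ILV3, ILV6, LEU9 and BAT1 also had steeper slopes without glucose in both courses than with glucose, by log2 values of -0.15 to -0.23 that did not pass. How many of all genes had courses apart in this way was not counted. The gap between the nearest courses was narrow for BAT1 and LEU9. BAT1 had -0.75 and -0.68 without glucose, against -0.46 and -0.66 with glucose. LEU9 had -0.81 and -0.76 without glucose, against -0.54 and -0.72 with glucose. Its flat labelled share thus stood beside a loss of labelled reads relative to the spike-in. Total LEU9 reads per spike-in read at 45 min were 0.0967 and 0.0792 of their 0 min value without glucose, against 0.970 and 0.561 with glucose. BAT2 reads per spike-in read were 2.27 and 1.97 times their 0 min value without glucose, against 1.40 and 1.28 times with glucose.

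In the polysome set the labelled share was far lower without glucose in every member, as in 99.6% of 5381 genes, with 0% higher. The titles word the 4TU labelling differently for these conditions, so glucose and the timing of the label cannot be told apart here. Over all yeast reads, 1.65% to 1.79% were labelled in total RNA without glucose, beside 46.2% to 48.1% in the chase at 30 min without glucose. The log2 odds differed by -5.31 for ILV2 to -8.34 for ILV3 in total RNA, but with conversions per covered T they were -6.98 for ILV2 and -6.19 for ILV3, so the members' order is not settled. By labelled reads ILV2 had the highest share of the 10 without glucose, with 5.20% and 4.69% in total RNA, against 65.2% and 69.5% with glucose. By converted T positions its mean without glucose was 0.0138%, the second lowest of the 10, beside 0.0528% for ILV5. The 95% Wilson intervals of single shares in this set were at most 3.18 points to either side, and they cover counting error only.

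In total RNA without glucose the labelled share without 4TU was below both shares with 4TU in all 10 members, for ILV3 by less than counting error. Over all yeast reads the share was 0.0502% without 4TU, against 1.65% to 1.79% with 4TU. The members thus go with the reads as a whole, and how many of all genes did so was not counted. For ILV3, 1.80% and 1.52% of reads were labelled in total RNA without glucose, beside 1.47% (8 of 545 reads, Wilson interval 0.746% to 2.87%) in the library without 4TU and without glucose. Its converted T positions were 0.0711% and 0.0355% with 4TU, beside 0.0992% without 4TU. Its log2 odds against the libraries with glucose thus rest on a share at background. At this depth labelled ILV3 RNA above that background was not detectable in total RNA without glucose. LEU9 had 0 labelled of 1764 reads in polysomes without glucose and without 4TU, which allows a share of up to 0.170%, beside 1.48% and 0.330% with 4TU.

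With glucose the labelled share of reads was lower in polysomes than in total RNA for 9 of the 10 members, as for 34.9% of genes, with 0% higher. ILV6 had 23.9% and 19.3% labelled reads in polysomes, against 41.8% and 43.4% in total RNA (log2 odds -1.44 ± 0.252, adjusted p = 2e-05). BAT2 had 31.2% and 30.4% in polysomes, against 37.5% and 43.0% in total RNA, and did not pass (log2 odds -0.60 ± 0.349, adjusted p = 0.154). The median over all genes was -1.02, and that of the members was -1.29. Counting conversions per covered T in place of labelled reads left 5 members lower, and without the second total RNA library 3 were. ILV1 and LEU9 lost the call whichever of the 4 libraries was left out, with log2 odds of -1.58 to -1.04 for ILV1 and -1.51 to -1.24 for LEU9.

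Without glucose no member passed in that comparison, where 0.743% of genes were higher in polysomes and 0.167% lower. In simulated data this test recovered 10% of log2 changes of 1 and 32% of those of 2. Changes of that size can thus be missed. BAT2 had 0.759% and 0.461% labelled reads in polysomes, against 2.06% and 1.11% in total RNA (log2 odds -1.37 ± 0.458, adjusted p = 0.123), and the groups did not overlap. ILV5 had 4.91% and 4.88% in polysomes, against 2.55% and 3.68% in total RNA (log2 odds 0.70 ± 0.290, adjusted p = 0.235), also without overlap.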

How the data were processed

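Libraries for 3' end sequencing were made from alkylated RNA, per the labels' protocols. Per the file headers, slamdunk 0.4.3 produced the tables. The submitters' processing notes also list cutadapt, Bowtie, TopHat2 and featureCounts, with no version or role. The deposited values used are whole-number counts per feature of reads, labelled reads, covered T positions, conversions and multimapped reads, as the file headers name them. Also deposited, and kept out of all tests, are the conversion rate as a fraction and CPM. The labels and headers used here state neither the genome build nor how many conversions a labelled read needs.

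Samples were grouped by their titles. Read counts were tested with edgeR 4.0.16 in R 4.3.3 (TMM factors, expression filter, robust quasi-likelihood test, Benjamini-Hochberg adjustment over all genes tested, threshold 0.05), in 1 fit of the 28 chase libraries and 1 of the 8 polysome set libraries. A joint fit of both sets was added after seeing the data. Labelled odds were tested in edgeR on 2 columns per library, labelled and unlabelled reads, with a library intercept, for genes with at least 50 reads a library on average and 10 labelled reads in sum. This treats the times of a course as independent. Slopes per spike-in read were compared with limma 3.58.1, after adding 0.5 reads, with 1 standard error for all genes. Spike-in reads of 6 features were present in the chase set only. Ratios without 4TU used CPM plus 0.5. A count of 0 was read as up to 3 counts, and intervals are 95% Wilson intervals. Fits were tested on simulated data. The variance between replicates was 4.02 to 24.2 times that of counting alone in the chase groups. In the groups of the polysome set it was 19.3 to 135 times. Alternatives were DESeq2 1.42.0, its size factors, library totals, spike-in scaling, no filter, other read minimums, conversions per covered T, a replicate block and leaving out each library.

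The members, all 10 of which are named, and the gene lists were chosen with earlier results of these data known. Symbols came from a RefSeq gene table, which matched 5558 of the 5560 features.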

Additional observations from a re-analysis of the deposited data

Results flagged for a closer look

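The log2 change of 7 members without against with glucose differed between total RNA of KWY11376 at 30 min and the chase of KWY165 at 30 min, by a direct test in a joint edgeR fit (total RNA change minus chase change, 2 libraries a group). The change in total RNA was the more positive for ILV1 (1.70 ± 0.252, adjusted p = 2.78e-06), LEU9 (1.09 ± 0.225, adjusted p = 0.000228), BAT2 (0.92 ± 0.225, adjusted p = 0.00137), LEU4 (0.89 ± 0.287, adjusted p = 0.012) and BAT1 (0.84 ± 0.309, adjusted p = 0.027). It was the more negative for ILV3 (-2.02 ± 0.403, adjusted p = 0.000167) and ILV5 (-1.24 ± 0.223, adjusted p = 4.11e-05). Of all 5535 genes tested, 20.5% were called more positive and 26.5% more negative. Strain, labelling scheme and library set vary together here and cannot be told apart. BAT1 did not pass in 4 of the fits that left out 1 library (0.64 to 0.75) and LEU4 did not in 2 (0.55 and 0.80). With library totals LEU4 (0.21), LEU9 (0.38), BAT1 (0.14) and BAT2 (0.19) did not pass. The polysome association of ILV5 differed between conditions, with a log2 change of 0.92 ± 0.274 without against with glucose (adjusted p = 0.0315) by the interaction term in edgeR. Of all genes 8.16% were called in that direction. With library totals the change of ILV5 was 0.70 and did not pass. Leaving out 1 library at a time gave 0.766 to 1.095, and the call did not hold in all of those fits.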

How the results depend on the processing

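Of 1310 values of members under an alternative, 1145 kept direction and side of the threshold, 65 no longer passed, 34 came to pass and 66 changed sign; the called values that turned were LEU4 at 45 min of the chase and, in slopes per spike-in read, ILV1, ILV3, ILV5, ILV6, LEU9 and BAT1. Library totals moved the median log2 value of all genes to -0.45 in total RNA, -0.73 (polysomes without glucose), -0.53 (with glucose), -0.22 (change) and 0.36 in the chase at 30 min, and spike-in scaling to -0.42 at 30 min and -0.64 at 45 min. The cause of the changes below was not tested beyond these shifts.

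With library totals 6 members were lower in total RNA, 1 higher and 5 lower in polysomes without glucose, 0 higher in the polysome change, 2, 3 and 2 higher in the chase at 10, 20 and 30 min, and 1 higher in the joint fit. Over all genes with that scaling, 2344 of 5540 were lower in total RNA, and 429 higher and 2775 lower in polysomes without glucose. In the polysome change 224 were higher. In the chase 1726, 2482 and 2622 of 5525 were higher at 10, 20 and 30 min, and in the joint fit 412 of 5535. Signs turned to -0.17 for ILV2 in total RNA; in polysomes without glucose to -0.43 for ILV3, -0.72 for ILV5, -0.30 for LEU9 and -0.22 for BAT1; with glucose to -0.15 for LEU4, -0.24 for LEU9 and -0.038 for BAT1. In the polysome change they turned to -0.11 for ILV2 and BAT2, -0.18 for ILV6, -0.068 for LEU9 and -0.19 for BAT1. In the chase they turned to 0.078 for ILV2 (5 min), 0.050 for BAT1 and 0.11 for BAT2 (10 min), 0.11 for LEU1 (15 min), 0.27 for ILV2, 0.0061 for LEU1 and 0.12 for BAT1 (20 min), 0.21 for ILV3 (30 min), and 0.081 for ILV2 and 0.23 for LEU1 (0 to 30 min). In the joint fit they turned to -0.17 for ILV2 and -0.55 for LEU1.

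Spike-in scaling called 243 genes and 0 members lower at 5 min, 1290 genes at 10 min, and 0, 1 and 0 members higher at 30 min, 45 min and from 0 to 30 min. Of 5525 genes 50 were lower at 5 min, and 1186, 1086 and 891 were higher at 30 min, 45 min and from 0 to 30 min. Signs turned to -0.018 for ILV6, -0.040 for LEU9 and -0.028 for BAT1 (0 min), -0.30 for ILV2, -0.16 for ILV3, -0.32 for LEU4 and -0.37 for BAT2 (15 min), and for LEU4 to -0.21 (30 min), -0.17 (45 min) and -0.31 (0 to 30 min). Slopes of labelled reads per spike-in read called 1 member shallower and 2 steeper without glucose among 2195 genes, with ILV1 at -0.27, ILV3 at -0.18, ILV5 at -0.38, ILV6 at -0.23, LEU9 at -0.16 and BAT1 at -0.15.

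DESeq2, and its size factors in edgeR, called 4 members each higher in polysomes without glucose and put BAT2 at 0.035, and the size factors left 1 lower. With the size factors 1490 of 5540 genes were higher in that comparison and 1277 lower. Conversions per covered T left 5 members and 965 genes with lower labelled odds in polysomes with glucose. Replicate numbers are shared between groups, and the main tests did not pair the libraries by them. Correlations of deviations were -0.38 to 0.30 in the chase and -0.06 in total RNA. Between polysomes and total RNA they were 0.09 without and 0.38 with glucose, so a pairing with glucose is not settled. With a replicate block 74 genes in place of 49 were called in the labelled odds of polysomes without glucose, and ILV1 passed in total RNA (-0.48, adjusted p = 0.0467).

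Leaving out 1 library at a time, a remaining lone library being assumed to vary like the other groups, gave these ranges. In polysomes without glucose 1 to 4 members were higher and 1 lower in every such fit, with ILV5 at -0.13 to 0.20 and BAT2 at -0.088 to 0.077. With glucose 0 to 2 were higher and 2 to 4 lower among 851 to 1489 genes called. In the polysome change 0 to 2 were higher among 357 to 964 genes, with ILV6 at -0.64 to 0.57 and BAT1 at -0.15 to 0.32. ILV6 ranged from -0.47 to 0.19 in total RNA and ILV3 from -0.37 to 0.16 in the chase at 30 min. From 0 to 30 min LEU1 ranged from -0.27 to 0.069 and LEU4 from -0.060 to 0.23. Labelled odds of polysomes against total RNA called 3 to 7 members and 444 to 949 genes with glucose, and 20 to 294 genes without glucose, where ILV1 ranged from -0.53 to 0.61, ILV6 from -0.79 to 0.21, LEU1 from -0.081 to 0.20 and BAT1 from -0.22 to 0.29. In the joint fit LEU1 ranged from -0.017 to 0.33.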
